A study of Mus musculus with 16 samples.

Results

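Usage of the immunoglobulin heavy variable (Ighv) gene segments was followed across 16 MC38 tumors by bulk RNA-seq. The members were the gene segments whose symbol begins with Ighv, whose annotated class is a functional immunoglobulin variable gene (IG_V_gene), and which reached at least 10 counts in some tumor. Of 53465 genes in the table, 113 were Ighv segments of this class and 65 met the rule, 48 stayed under 10 counts and 17 of those 48 were at 0 in every tumor. A further 70 Ighv entries are annotated as pseudogenes and were left out of the members.

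MC38 is a mouse colorectal carcinoma line. In every group, cells of the line were injected under the skin of the right flank of female C57BL/6 mice aged 6 to 8 weeks, mice with tumors of 150 to 250 mm3 on day 16 were enrolled, and 200 µg of antibody was given on days 16 and 20 before harvest on day 21. The groups were 8 tumors given control IgG, 6 tumors given anti-PD-1 (aPD-1) and designated non-responders, and 2 given aPD-1 and designated responders, a designation the study made from CD8 T cell staining of the same tumors. Each tumor came from its own mouse and is called here by its group and its number (IgG control 1 to 8, non-responder 9 to 14, responder 15 and 16). RNA came from sections of the frozen part of each tumor, the rest having been fixed, so fewer B lineage cells and less immunoglobulin RNA per cell cannot be told apart.

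A heavy chain gene is assembled in a developing B cell when one V segment is joined to a D and a J segment, and each B cell and its daughters then use that one V segment. The chosen segment encodes most of the antigen-binding variable domain, and sits upstream of the constant gene that sets the antibody class. A tissue with many unrelated B cells therefore carries RNA from many V segments, and an expanded clone or a group of antibody-secreting plasma cells, which hold far more immunoglobulin RNA than resting B cells, adds its own segment to that mixture. In the mouse the segments lie in a long array on chromosome 12, and family 1, the large J558 family, occupies the end far from the constant genes.

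The sequences below belong to the segments on which the results turn, and are shown because close relatives differ at so few bases that reads must be divided between them. Each run holds the last 290 bases of the longest transcript in the GENCODE M21 annotation of GRCm38, 5′ to 3′ on the coding (minus) strand, and capitals mark bases that differ from the nearest other Ighv gene segment. The first 3 were among the 4 most used segments of responder 15, the next pair among the 4 most used of responder 16, and the last took most of the Ighv counts of non-responder 11.
Ighv1-64: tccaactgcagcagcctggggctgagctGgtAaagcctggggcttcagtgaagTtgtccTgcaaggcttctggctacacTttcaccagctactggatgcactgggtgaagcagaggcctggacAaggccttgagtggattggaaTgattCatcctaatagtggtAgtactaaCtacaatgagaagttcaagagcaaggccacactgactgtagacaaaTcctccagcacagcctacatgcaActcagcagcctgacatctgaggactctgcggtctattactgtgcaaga
Ighv1-78: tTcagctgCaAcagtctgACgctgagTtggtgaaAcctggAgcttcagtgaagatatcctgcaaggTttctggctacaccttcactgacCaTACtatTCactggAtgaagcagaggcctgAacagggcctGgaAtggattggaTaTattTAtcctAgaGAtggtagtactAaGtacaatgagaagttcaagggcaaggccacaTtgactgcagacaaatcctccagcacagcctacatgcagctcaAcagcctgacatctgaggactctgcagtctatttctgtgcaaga
Ighv8-5: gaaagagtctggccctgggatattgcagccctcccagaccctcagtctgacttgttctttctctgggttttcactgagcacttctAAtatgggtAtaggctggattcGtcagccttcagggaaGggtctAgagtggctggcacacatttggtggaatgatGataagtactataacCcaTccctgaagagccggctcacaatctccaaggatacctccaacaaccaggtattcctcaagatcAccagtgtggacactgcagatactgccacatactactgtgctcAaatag
Ighv1-82: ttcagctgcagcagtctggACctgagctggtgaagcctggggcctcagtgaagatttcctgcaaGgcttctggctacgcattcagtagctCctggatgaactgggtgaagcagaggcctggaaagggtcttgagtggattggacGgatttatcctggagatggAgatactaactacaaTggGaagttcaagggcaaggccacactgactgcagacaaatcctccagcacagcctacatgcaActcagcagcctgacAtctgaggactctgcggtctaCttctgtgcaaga
Ighv9-1: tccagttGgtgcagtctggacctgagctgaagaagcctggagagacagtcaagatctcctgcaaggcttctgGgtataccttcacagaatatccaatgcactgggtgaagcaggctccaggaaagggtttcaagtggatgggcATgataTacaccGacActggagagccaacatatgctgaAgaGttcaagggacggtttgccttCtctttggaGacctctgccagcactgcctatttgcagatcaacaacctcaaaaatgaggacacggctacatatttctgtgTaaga
Ighv1-50: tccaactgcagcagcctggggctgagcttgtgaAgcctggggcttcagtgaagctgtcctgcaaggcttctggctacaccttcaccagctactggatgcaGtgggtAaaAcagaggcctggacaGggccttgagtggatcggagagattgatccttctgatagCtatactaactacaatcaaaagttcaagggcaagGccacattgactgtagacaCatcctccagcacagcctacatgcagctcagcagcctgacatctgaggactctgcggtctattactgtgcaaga

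Ighv1-64 (chr12:115507545-115508031) was 95.9% identical to its nearest relative, Ighv1-62-3, over these 290 bases. Ighv1-78 (chr12:115868773-115869227) stood further from its nearest segment, Ighv1-77, at 89.7%. Ighv8-5 (chr12:115067560-115068002) and Ighv1-82 (chr12:115952538-115953005) were each 96.2% identical to theirs, Ighv8-11 and Ighv1-80. Ighv9-1 (chr12:114093928-114094358) matched Ighv9-2 at 95.9% of bases, and Ighv1-50 (chr12:115119748-115120219) matched Ighv1-69 at 97.2%, with 8 differing bases. Over the 65 members the identity to the nearest segment had a median of 95.9% and ran from 73.3% to 100%, the last being Ighv1-62-2, which could not be told apart from Ighv1-71 over this stretch. The letters TGTGCAAGA, which code for the conserved cysteine and the residues after it where the V segment ends, were searched on the coding strand within the last 15 bases and were found in 37 of 65 members (56.9%), against 54.0% of all 113 segments. Ighv8-5 and Ighv9-1 end in other letters.

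Total counts per tumor lay between 26603449 and 39948866. The tumors were labelled as colorectal carcinoma, and 7 markers of colon epithelium were listed. Levels are given as CPM, a count divided by its library's TMM-scaled total, per 1000000. In the 14 tumors other than the responders Krt8, Krt18 and Epcam stayed at or below 1.81 CPM, and Krt20 and Vil1 at or below 0.366 CPM. Cdh1 was higher, at 3.91 to 5.73 CPM in IgG controls and 3.75 to 8.12 CPM in non-responders. Cdx2, an intestinal transcription factor, was at 0 in all but 1 of the 16 tumors, where it was at 0.0259 CPM. Several libraries stood apart. IgG controls 4 and 6 and non-responders 9, 12, 13 and 14 held 4 to 34 counts of Glycam1, a product of lymph node high endothelial venules, and 86 to 131 counts of Ighg1, whereas the other 8 IgG and non-responder tumors held 0 or 1 and 0 to 12. Calls were therefore also made without these 6 libraries.

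Ighv RNA was abundant in the responders and close to the limit of detection elsewhere. Summed over the 65 members, responder 15 held 8381 counts and responder 16 held 5756. The IgG controls held 1 to 43 counts with a median of 7.5, and the non-responders held 3 to 59 with a median of 35.5. On the scale of CPM, the responders stood at 248 and 162, the non-responders at 0.0911 to 1.70 (median 0.977) and the IgG controls at 0.0281 to 1.20 (median 0.216). Both responders were above all 14 other tumors, and the lower responder exceeded the highest non-responder 95.2-fold and the highest IgG control 135-fold. The means were 205 ± 60.7 CPM (SD, n = 2) in responders, 0.934 ± 0.536 (SD, n = 6) in non-responders and 0.477 ± 0.517 (SD, n = 8) in IgG controls. The non-responder and IgG ranges overlapped. Without the 6 libraries that stood apart, the non-responders were at 0.0911 and 1.70 CPM and the IgG controls at 0.0281 to 1.19 CPM.

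**Figure D1:**
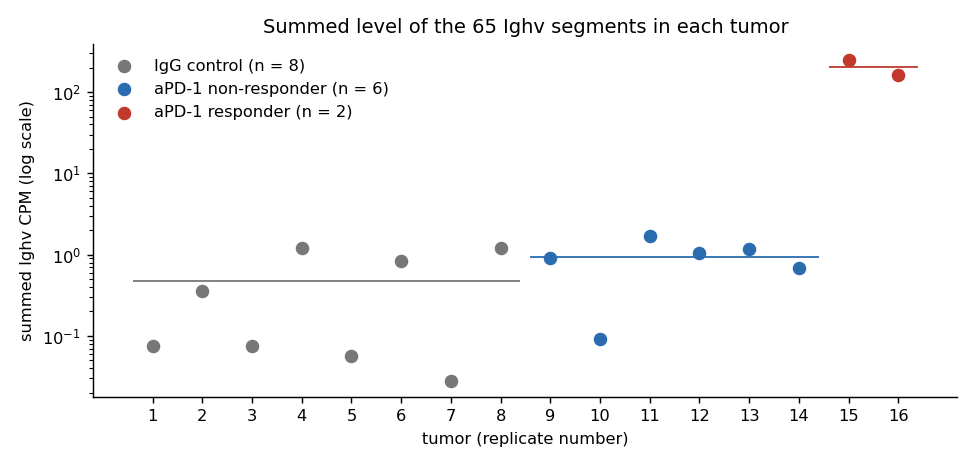
Summed CPM of the 65 Ighv segments (log axis) in each of the 16 tumors, 1 point per tumor, with a line at each group mean. The 2 responders sit at 248 and 162 CPM, and the other 14 tumors at 1.70 CPM or below.

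Members were chosen for reaching 10 counts in some tumor, so how many of them the responders covered follows from the rule. In each responder 63 of the 65 members had at least 1 count. Of the 113 segments, 57 reached 10 counts in responder 15 and 51 did in responder 16, with 43 reaching it in both. Outside the responders only 146 of 910 values of members were above 0 and 144 of these were 8 counts or fewer. The exceptions were Ighv1-50 with 49 counts in non-responder 11 and Ighv1-75 with 13 counts in IgG control 8. At the edge of the rule, Ighv5-12 had 10 counts in responder 15 and 7 in responder 16, and Ighv1-62-2 had 7 and 11. Just outside it, Ighv5-2 had 8 and 2 counts, and Ighv1-61, Ighv2-6, Ighv3-5 and Ighv7-1 peaked at 7 counts.

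Light chain variable and heavy constant genes were also highest in the responders. Kappa variable (Igkv) genes, which encode the variable part of the partner light chain, summed to 427 and 305 CPM in the responders, 0.425 to 3.37 CPM in non-responders and 0 to 3.16 CPM in IgG controls. Lambda variable genes summed to 50.9 and 42.6 CPM in the responders and at most 0.463 CPM elsewhere. Per 100 Igkv counts there were 58.1 and 53.1 Ighv counts in the responders, and 32.8 to 59.6 in the 8 other tumors with at least 20 Ighv counts, so these ranges overlapped. Per 100 counts of the 8 heavy constant genes there were 11.6 and 11.97 Ighv counts in the responders and 3.11 to 8.71 in those 8 tumors. Ighm, the constant gene of IgM, had 209 to 1045 counts in the 14 other tumors, where the Ighv members summed to at most 59.

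Responder 15 exceeded responder 16 by 1.53-fold for the Ighv sum, 1.40-fold for Igkv and 1.58-fold for the heavy constant genes. The ratio was 1.42 for Jchain, which links IgM and IgA chains, and 1.25 for Mzb1, a chaperone of antibody-secreting cells. Over the 12 listed genes of plasma cells and secretion it ranged from 0.672 for Prdm1, a regulator of plasma cell formation, to 2.83 for Pou2af1, a B cell transcriptional coactivator, with a median of 1.33 and 8 genes higher in responder 15. Over the 14 listed genes of the B cell receptor and B cell identity it ranged from 2.12 for Ebf1 to 5.45 for Cr2, with a median of 3.52. With 1 tumor on each side these ratios carry no replicate check.

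Usage within responder 15 was concentrated on few segments. Ighv1-78 took 17.3% of its Ighv counts (95% Wilson interval 16.5 to 18.1%), Ighv1-64 took 14.9% (14.2 to 15.7%), Ighv1-19 took 10.7% (10.02 to 11.35%) and Ighv8-5 took 8.63% (8.04 to 9.25%). These intervals cover counting error only. The 3 leading members summed to 42.9% and the 10 leading members to 72.1%. In responder 16 the leaders were Ighv1-82 at 8.49% (7.80 to 9.24%), Ighv5-9 at 7.42% (6.77 to 8.12%), Ighv1-64 at 7.05% (6.42 to 7.74%) and Ighv9-1 at 6.58% (5.97 to 7.25%). There the 3 leading members summed to 23.0% and the 10 leading to 57.0%. Ighv1-64 was thus the one segment among the first 3 of both.

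Evenness was expressed as the effective number of segments, the exponential of the Shannon entropy, which is the number of equally used segments that would give the same diversity. It was 21.5 in responder 15 and 33.5 in responder 16, and on a scale from 0 (1 segment) to 1 (all 65 alike) the evenness was 0.735 and 0.841. The inverse Simpson index, which weights the leaders more, gave 12.2 and 24.4. Among tumors with at least 20 Ighv counts, the effective number had a median of 13.7 in 5 non-responders (1.94 to 20.2) and 17.9 in 3 IgG controls (6.98 to 19.5). An effective number depends on how many counts there are. At an equal depth of 20 Ighv counts the expected number of segments seen was 11.7 and 14.3 in the responders, 3.28 to 14.6 in the 5 non-responders and 7.51 to 15.7 in the 3 IgG controls, so the groups overlapped.

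**Figure D2:**
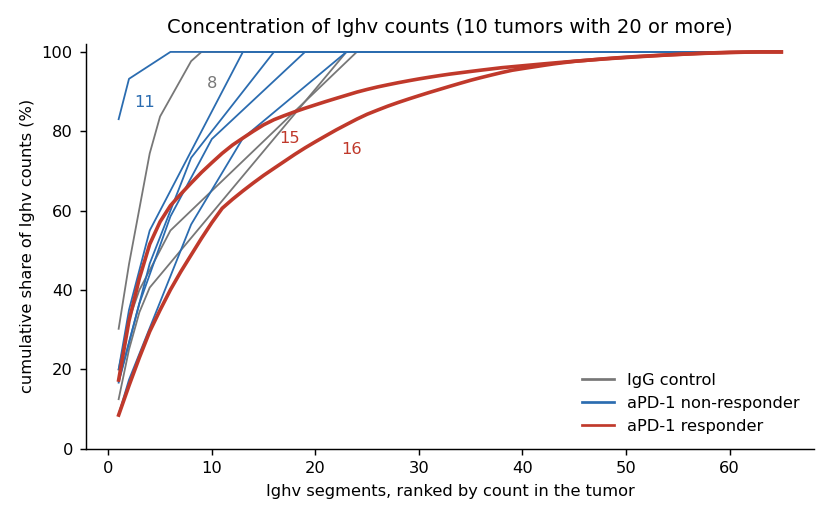
Cumulative share of Ighv counts (%) against segments ranked by count, for the 10 tumors with at least 20 Ighv counts. Responder 15 rises faster than responder 16 (72.1% against 57.0% at 10 segments), non-responder 11 reaches 83.1% with 1 segment, and the remaining curves end early because those tumors held 20 to 46 counts.

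Which segments were used differed between the responders. The 95% intervals of the share did not overlap for 47 of the 65 members, of which 19 were higher in responder 15 and 28 in responder 16. Only 3 members were among the first 10 of both tumors. Ighv8-5 had 723 counts in responder 15 and 0 in responder 16, where 0 of 5756 counts gives a 95% Wilson upper limit of 0.0667% on the share. Ighv2-9 had 233 and 2 counts. In the other direction Ighv9-1 had 5 counts in responder 15 and 379 in responder 16, a share 110-fold higher, and Ighv2-5 had 6 and 131. Ighv1-78 had 1452 and 45 counts, a share 22.2-fold higher in responder 15. The shares of Ighv14-4 were close, at 4.07% (3.67 to 4.51%) and 4.19% (3.70 to 4.74%), as were those of Ighv1-34 (1.75 and 1.55%) and Ighv1-50 (1.61 and 1.49%), and for these 3 the intervals overlapped. Pearson's r between the counts of both tumors was 0.25 over the 65 members, which share the library and the annotation and are not independent points. The exons of the members were 350 to 480 bases long, and dividing counts by that length kept the same 6 leading members in each responder.

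**Figure D3:**
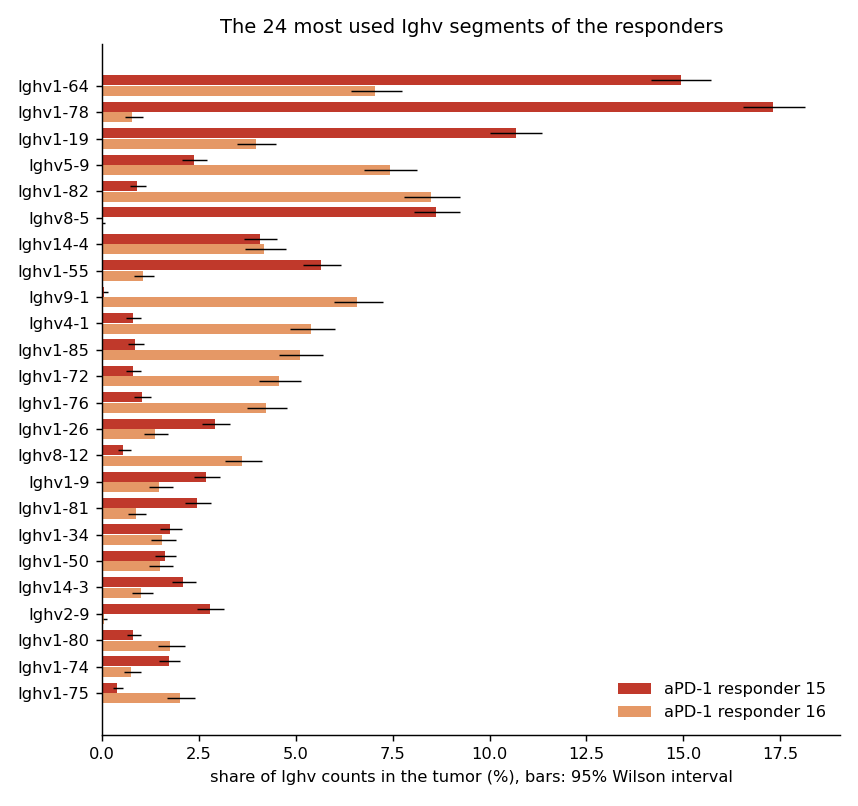
Share of Ighv counts (%) of the 24 most used segments in responder 15 and responder 16, with 95% Wilson intervals as bars. Ighv1-78 and Ighv8-5 are large in responder 15 (17.3 and 8.63%) and at 0.782% and 0 in responder 16, and Ighv1-82 and Ighv9-1 show the reverse.

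By family, the 34 members of family 1 (52.3% of members) took 70.4% of Ighv counts in responder 15 (69.4 to 71.4%) and 55.8% in responder 16 (54.5 to 57.1%). Family 5, whose segments lie near the constant genes, took 3.27% (2.91 to 3.67%) and 11.6% (10.8 to 12.4%). Family 9 took 0.585% and 8.36%, nearly all of the second from Ighv9-1, and family 8 took 9.86% and 4.26%, the first mostly from Ighv8-5. Family 14 was alike in both at 6.67% and 6.83%, with overlapping intervals. Families 12, 13 and 16 each hold 1 segment of this class and had no member.

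Along the locus, which the files place at chr12:113578504-116000461 on GRCm38, the 113 segments were divided by order into 4 parts, the first nearest to the constant genes. The 19 members of the farthest part, which spans the segments from Ighv1-56 to Ighv1-85, took 43.9% of Ighv counts in responder 15 (42.8 to 45.0%) and 43.5% in responder 16 (42.2 to 44.7%), and these intervals overlapped. The 17 members of the first part, which spans the segments from Ighv5-2 to Ighv14-3, took 11.3% (10.7 to 12.03%) and 23.7% (22.6 to 24.8%). The third part, where Ighv1-19, Ighv8-5 and Ighv1-55 lie, took 33.4% and 14.02%. Segments from both ends of the array were thus in use in each tumor.

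**Figure D4:**
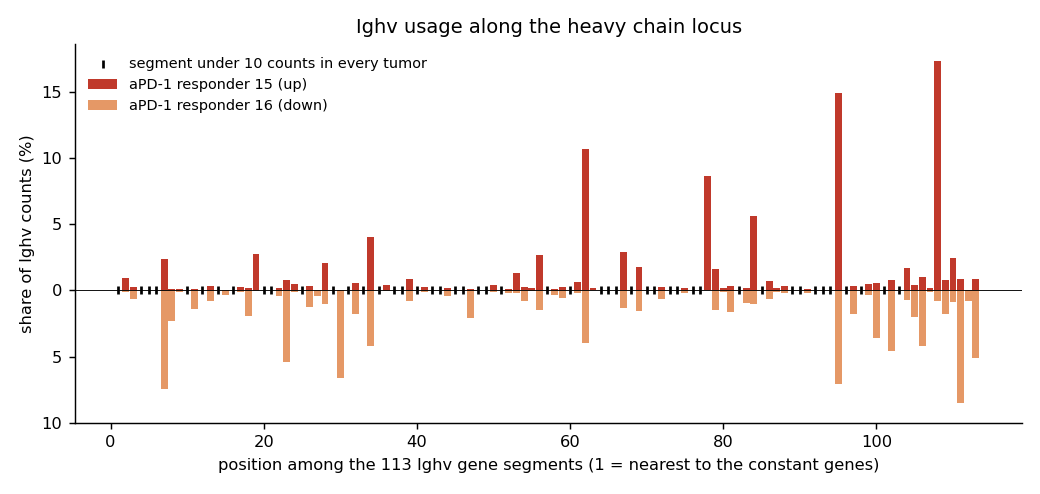
Share of Ighv counts (%) of each member by its order along the heavy chain locus, position 1 being nearest to the constant genes, upward for responder 15 and downward for responder 16. Tick marks show the 48 segments under 10 counts, and the farthest part of the locus holds 43.9% and 43.5% of counts.

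Differences between the groups were tested gene by gene with edgeR across all genes. Calls required a log2 fold change beyond 1 in either direction together with an edgeR adjusted p under 0.05. Of the 65 members 43 passed edgeR's filter on low counts, and 0 of these pass it without the responder libraries, so that they had to differ. All 43 were called higher in responders than in non-responders and none lower, beside 12.5% of the 18251 genes tested that were called higher. Against IgG controls all 43 were called higher, beside 14.3% of genes. In both comparisons, which share the responders, the responders lay above all 14 other tumors for each of the 43, as they did for 16.7% of the genes tested. Those counts follow from the filter and are not support. The fitted log2 fold changes of the 43 had a median of 7.70 against non-responders and 8.00 against IgG controls, where all genes had medians of 0.02 and -0.02. With the 14 members at 0 in all non-responders and the 11 at 0 in all IgG controls set to the bound that 3 counts over the group allow, the medians were 7.04 and 7.77.

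The filter left out 22 members that reached 10 counts in 1 responder only, and these held 15.6% of the Ighv counts of responder 15 and 12.3% of those of responder 16. Ighv8-5, at 21.4 and 0 CPM in the responders, and Ighv9-1, at 0.148 and 10.7 CPM, were among them. In a fit with no filter 61 of the 65 members were called higher than in non-responders, where 7.87% of all genes tested were called higher. Across all 65, 57 members had both responders above all 14 other tumors by CPM, 4 had responder 15 alone and 4 had responder 16 alone. All 65 reached 10 counts in a responder, so this separation largely follows from the rule and is not support. The share over all genes, 16.7%, covers only the 18251 that passed the filter.

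Among the members tested, Ighv1-64 stood at 37.0 and 11.4 CPM in the responders, had a median of 0.0602 CPM and a highest value of 0.136 CPM in non-responders, and a median of 0 and a highest value of 0.150 CPM in IgG controls. It was higher than in non-responders by 8.51 ± 0.81 on the log2 scale (SE, edgeR adjusted p = 1.21e-06). Because members passed the filter only through the responders, this p-value and those below for responders describe the fit and are not support. Ighv1-78 was at 42.9 and 1.27 CPM, with at most 0.103 CPM in non-responders and 0.240 in IgG controls, and its log2 fold change of 8.76 ± 1.16 (adjusted p = 3.67e-05) rested on responder 15: without that tumor it was 4.59 with an adjusted p of 0.0844. Ighv1-82 was at 2.22 and 13.7 CPM against at most 0.177 CPM in non-responders (log2 fold change 7.04 ± 0.97, adjusted p = 5.41e-05). Ighv1-19 was at 26.4 and 6.41 CPM against at most 0.0771 CPM (9.22 ± 0.86, adjusted p = 9.45e-07). For these 4 segments both responders were above all 14 other tumors, while the ranges of non-responders and IgG controls overlapped.

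The 5 smallest p-values between responders and non-responders belonged to Ighv5-9, Ighv1-34, Ighv1-85, Ighv1-76 and Ighv1-19. Ighv5-9 had 198 and 427 counts in the responders and 3 counts over all 6 non-responders, a ratio of 625.5 (95% counting interval 213 to 3041), with an edgeR adjusted p of 1.59e-07. Ighv1-34 had 147 and 89 counts against 1, a ratio of 709 (126 to 28110). Ighv1-85, the farthest of the 113 segments from the constant genes, had 71 and 294 counts against 1, a ratio of 1096 (195.5 to 43400). Ighv1-76 had 86 and 243 counts against 5 (log2 fold change 7.42 ± 0.68). Ighv1-72, at 66 and 262 counts, was at 0 in all non-responders and so at least 328-fold higher, a bound set by 3 counts over the group.

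The lowest log2 fold changes against non-responders were those of Ighv1-50, Ighv8-8, Ighv6-3 and Ighv1-54. Ighv1-50 had 135 and 86 counts in the responders, 49 in non-responder 11 and 0 or 1 in the other 5 non-responders. Its log2 fold change was 3.69 ± 1.19 with an adjusted p of 0.0373, and without any 1 of non-responders 9, 10, 12, 13 or 14, or of either responder, the edgeR adjusted p rose above 0.05 (0.0537 to 0.320). Without non-responder 11 it was 7.73 with an adjusted p of 3.96e-06. Ighv8-8 had 57 and 37 counts against 4 counts, all in non-responder 13 (5.93 ± 0.88, adjusted p = 0.000113). Ighv6-3 (18 and 23 counts) and Ighv1-54 (13 and 53 counts) had 1 and 2 counts over the non-responders.

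Between non-responders and IgG controls 0 of the 43 members were called, as were 0 of the 18251 genes (0.0%). At an unadjusted p below 0.05 edgeR gave 3 members and 694 genes, and DESeq2 called 0 members and 4 genes. The 3 members were Ighv1-50 with 51 counts against 3, Ighv8-12 with 5 against 0 and Ighv4-1 with 13 against 3, each with an edgeR adjusted p of 0.987. The depth at these counts does not allow a difference of a few counts per tumor to be seen.

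Non-responder 11 and IgG control 8 held Ighv counts of another makeup than the rest. In non-responder 11, Ighv1-50 made up 49 of 59 Ighv counts, 83.1% (71.5 to 90.5%), followed by Ighv4-1 with 6. One kappa segment, Igkv8-24, made up 75 of its 99 Igkv counts, 75.8% (66.5 to 83.1%), and Ighg2c, the constant gene of the IgG2c class, had 287 counts there, 42.4% of the heavy constant counts of that tumor. It had 4 counts of Ms4a1 and 30 of Jchain. In IgG control 8, Ighv1-75 made up 13 of 43 Ighv counts, 30.2% (18.6 to 45.1%), and Ighv10-3 had 7. Ighm, with 1045 counts, made up 97.9% of its heavy constant counts, Ighg1 was at 0, Jchain had 94 counts and Ms4a1 had 7. IgG control 2 had 13 Ighv counts, 7 of them from Ighv11-2, a segment known from innate-like B cells of the body cavities that bind phosphatidylcholine.

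In the other tumors the leading segment was set by few counts. Ighv1-78 led IgG control 4 with 8 of 40 counts, Ighv1-64 and Ighv1-82 led IgG control 6 with 4 each of 32, and Ighv1-82 led non-responder 12 with 7 of 41. Ighv9-1 led non-responder 9 with 5 of 30, Ighv1-64 led non-responder 14 with 4 of 20, and Ighv1-78 and Ighv8-8 had 4 each of 46 in non-responder 13. IgG controls 1, 3, 5 and 7 and non-responder 10 had 1 to 3 Ighv counts in all, from Ighv6-3, Ighv1-7, Ighv1-58, Ighv1-82, Ighv1-75 and Ighv3-6 among others.

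In 6 of these tumors usage scored as more like that of a responder than the responders scored as like each other. Likeness of usage was measured with the Morisita index, which is near 1 when 2 sets of counts are drawn from the same usage, may exceed 1 by sampling, and is 0 when no segment is shared. No interval was computed for it, and the 6 tumors held only 20 to 46 Ighv counts each. Between the 2 responders it was 0.416 for Ighv and 0.498 for Igkv. IgG control 4 had an index of 1.07 to responder 15 and 0.590 to responder 16 by Ighv, and 1.03 and 0.520 by Igkv. IgG control 6 showed the reverse, with 0.498 to responder 15 and 1.10 to responder 16 by Ighv, and 0.456 and 0.992 by Igkv. Non-responders 9, 12, 13 and 14 had Ighv indices of 0.576 to 0.788 to responder 15 and 0.561 to 0.875 to responder 16, above the value between the responders in each case. Their Igkv indices were 0.530 to 1.00 and 0.334 to 0.805. By Igkv, IgG control 6 to responder 15 and non-responder 13 to responder 16 lay below the value between the responders. Non-responder 11 and IgG control 8 had indices of at most 0.151 to either responder.

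**Figure D5:**
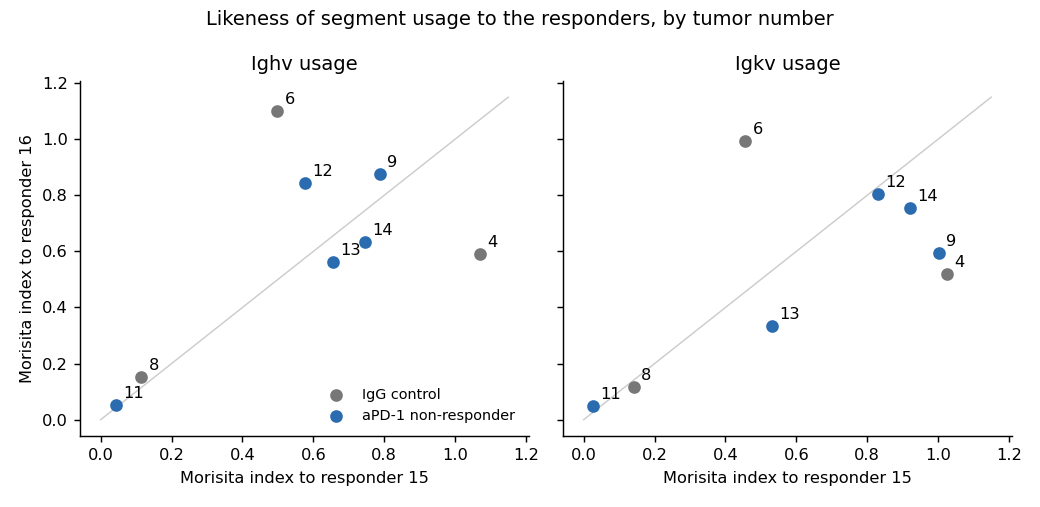
Morisita index of Ighv usage (left) and Igkv usage (right) to responder 15 (x axis) and responder 16 (y axis) for the 8 IgG and non-responder tumors with at least 20 Ighv counts, numbered by tumor; the line marks equal likeness. Tumors 8 and 11 lie near 0, tumor 4 lies toward responder 15 and tumor 6 toward responder 16 in both panels.

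The same 6 tumors carried responder-high genes at a small fraction of the responder mean. They were set apart above by Glycam1 and Ighg1, so the values of those genes here restate that choice. Their summed Ighv CPM was 0.331 to 0.586% of the responder mean, Igkv 0.425 to 0.920%, Jchain 0.358 to 0.781%, Ighg1 0.385 to 0.679%, Ms4a1 0.226 to 0.750% and Glycam1 0.0968 to 0.951%. In the other 8 IgG and non-responder tumors Ms4a1 was at most 0.153% and Glycam1 at most 0.0284% of the responder mean, while the Ighv sum reached 0.830%, Igkv 0.863% and Jchain 0.799%, within or above the ranges of the 6 tumors. Whether reads of the responder libraries entered these 6 libraries was not tested. Without them 43 members were tested and 31 were called higher in responders than in the 2 remaining non-responders, where 6.93% of all genes tested were called higher. Against the 6 remaining IgG controls 43 were called, where 13.6% of all genes were. Among the 12 members no longer called was Ighv1-78 (edgeR adjusted p = 0.0855). Only 5 of the 12 had a larger log2 fold change without the 6 libraries. Over the 12 the median log2 fold change was 7.21 against all 6 non-responders and 7.64 against the remaining 2.

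Other genes of the antibody system were taken from lists, and all genes give the background of 12.5% called higher in responders than in non-responders. All 8 heavy constant genes were called higher (median log2 fold change 7.33), as were all 4 light constant genes tested and 13 of 14 genes of the B cell receptor and B cell identity (median 6.80), Cd72 being the exception. Of 12 genes of plasma cells and secretion 7 were called higher, among them Jchain at 382 and 269 CPM and Irf4 at 42.3 and 28.7 CPM, whereas Sdc1, Prdm1, Xbp1, Creld2 and Fkbp11 were not called. Of 9 genes of V(D)J recombination and antibody mutation 7 were tested and 2 were called higher, among them Dntt, which adds bases at the junctions, at 0.828 and 0.956 CPM. Rag2, part of the recombinase, was at 0 in all 16 tumors. Of 8 germinal center genes 4 were called higher, and Bcl6, S1pr2, Mybl1 and Fas were not. None of these genes was called between non-responders and IgG controls.

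Markers of some other cell types and tissues were also called higher in the responders, and those of others were not. The 6 B cell markers were all called higher in responders than in non-responders, with a summed level of 304 to 1113 CPM in responders, 2.49 to 6.53 in non-responders and 1.63 to 7.41 in IgG controls. Of 7 lymph node stroma and high endothelial venule markers tested 6 were called higher, with sums of 292 to 527 CPM in responders, 22.6 to 100.3 in non-responders and 21.8 to 89.8 in IgG controls. Enpp2, which was not called, made up most of the sums outside the responders. It was at 21.0 to 96.6 CPM in non-responders and 21.1 to 87.6 CPM in IgG controls. Glycam1 was at 184 and 30.6 CPM in the responders and at most 1.02 CPM elsewhere. All 4 fat cell markers were called higher, with sums of 206 to 1125 CPM in responders, 19.0 to 49.4 in non-responders and 16.0 to 77.3 in IgG controls. All 4 T cell markers were called higher, with sums of 134 to 142, 7.15 to 19.4 and 5.16 to 18.3 CPM in the same order. Of 5 colon epithelium markers tested 3 were called higher, Epcam, Krt8 and Krt18, and of 6 naive and recirculating T cell markers 5 were. No marker of macrophages, skeletal muscle or keratinocytes was called. Their part in the Ighv level was not tested.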

How the data were processed

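Paired reads of poly(A)-selected, strand-specific libraries were aligned to GRCm38 with STAR 2.6 and assigned to Ensembl 91 genes with RSEM 1.3.0 by the authors, who deposited 1 table of expected counts with 1 column per tumor. RSEM divides reads that match several segments among them, and reads over V(D)J junctions or mutated bases may align less well, so counts of near-identical segments are uncertain. Counts were rounded, and 92 spike-in entries (at most 0.000549% of a tumor) were left out. Classes and positions came from GENCODE release 21, which matched 53274 of 53465 identifiers. In R 4.3.3, edgeR 4.0.16 (TMM, its filter on low counts, robust quasi-likelihood test) was fitted to all 16 tumors and 3 groups, with Benjamini-Hochberg adjustment over 18251 genes. The steps were tested on simulated data. Shares, diversity and likeness were computed in Python 3.11.15. DESeq2 1.42.0 and leaving out tumors were among the alternatives. The members, gene lists and tests were chosen with earlier results of these data known. Genes named were the 6 with the highest mean share in responders, the leader of each tumor, the 5 of smallest p and the 4 of lowest fold change for responders over non-responders, those at the edge of the count rule and those with at least 10 counts outside the responders. Other members were named after their values were seen.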

Additional observations from a re-analysis of the deposited data

Results flagged for a closer look

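Within groups of 6 or 8 tumors, 9 sets of values (the summed Ighv level, and members with at least 10 counts in a group) were searched for a single tumor far from the rest by its gap to the nearest tumor as a fraction of the whole range. Chance alone marks about 1 in 20 sets of values that were not selected, a rate that does not hold for members entered for at least 10 counts in a group, which 1 tumor can supply. Of the 2 members entered for IgG controls both had such a tumor. In non-responders, Ighv1-50 at 1.41 CPM in non-responder 11 had a gap of 0.978 of the range. In IgG controls, IgG control 8 stood apart for Ighv1-75 at 0.360 CPM, with a gap of 0.922, and for Ighv10-3 at 0.194 CPM, with a gap of 0.691. The summed Ighv level showed no such tumor in either group.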

How the results depend on the processing

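The count of 43 members called higher in responders stayed within 1.5 times under every alternative that gave a count. However, 0 members passed the filter without the responders, and all members reached 10 counts in a responder. Neither these counts nor the calls kept by the members followed by name below are therefore support. Against non-responders it was 31 of 43 tested with DESeq2 and 43 of 43 with median-of-ratios size factors, beside 2248 and 2294 of 18251 genes called higher. It was 61 of 65 with no filter on low counts (2429 of 30852 genes) and 40 of 41 with only both groups in the fit (2172 of 17651). Summing near-identical segments left 39 to test, and all 39 were called (2281 of 18247 genes). Leaving out a non-responder gave 42 or 43, with 1973 to 2288 of at least 18143 genes called higher. Against IgG controls DESeq2 gave 31 of 43 (2562 of 18251 genes). Leaving out an IgG control gave 43 each time, with 2500 to 2680 of at least 18104 genes called higher. DESeq2 gave no adjusted p for 1 member, Ighv1-50. A filter of at least 10 counts in 8 tumors left no member to test, and the fit of non-responders and IgG controls alone had none either. The median effective number of segments of the responders was 27.5, and with 1 responder left out it was 21.5 to 33.5. By the inverse Simpson index, which gives rare segments less weight, the median was 18.3. The number of segments expected in a draw of 20 counts, which cannot exceed 20, had a median of 12.98. The depth-equalised count at the lowest total of the 16 tumors was not run, since that total was 1 count, and the depth of 20 was chosen after seeing the data, as was leaving out 6 libraries. For the 13 members followed by name, 340 of 356 alternative fits kept the call, 16 lost it and 0 reversed. No paired analysis was possible because the 16 tumors carry 16 different numbers. With 1 responder left in a fit its spread was taken from the other groups, so the numbers called in those fits are not listed here. The stable counts above from leaving out a non-responder or an IgG control therefore do not show how far the calls hang on either responder. All p-values for responders rest on 2 tumors.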
